A study of Mus musculus with 4 samples.

Results

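The genes described here are a chosen list of 8 Paneth cell granule products other than the α-defensins: Lyz1, Mmp7, Ang4, Itln1, Pnliprp2, Reg4, Mptx2 and Rnase1. They were taken by symbol from the 31053 genes of the deposited single-cell count matrices, and all 8 were found. Small-intestinal crypt cells came from female C57BL/6 recipients aged 8 to 12 weeks, 7 days after bone marrow transplantation (BMT). Allogeneic recipients, labelled as having graft-versus-host disease, received BALB/c donor marrow, and syngeneic recipients, labelled as controls, received C57BL/6 marrow. Both groups were lethally irradiated, so neither shows the crypt without irradiation. There were 2 libraries per group, each a pool of 3 to 4 mice, which makes n = 2 pools per group throughout. Mouse-to-mouse spread within a pool was not measured. The sample names carry a "KO" prefix that no label explains.

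Paneth cells sit at the crypt base between the stem cells and store antimicrobial proteins in large secretory granules. In mice, α-defensins are made as inactive precursors, and the metalloproteinase matrilysin, the product of Mmp7, cuts them into their active form. Lyz1 encodes the lysozyme of Paneth cells, which cleaves bacterial peptidoglycan. Ang4 encodes an angiogenin of the ribonuclease A superfamily with antibacterial activity, and Rnase1 a pancreatic-type ribonuclease of the same superfamily. Itln1 encodes intelectin 1, a lectin that binds microbial glycans. Reg4 encodes a C-type lectin of the regenerating family, Mptx2 a mucosal pentraxin, and Pnliprp2 a relative of pancreatic lipase. Paneth and goblet cells share a secretory ancestry under the transcription factor Atoh1, and several granule products are not exclusive to Paneth cells.

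Mmp7 lies on chromosome 9 at 7692090 to 7699585 (plus strand, GRCm38), Ang4 on chromosome 14 at 51763878 to 51773590 (minus strand) and Rnase1 on chromosome 14 at 51144998 to 51146785 (minus strand). All 3 are annotated as protein-coding. Lyz1 and its neighbour Lyz2 both lie on the minus strand of chromosome 10, at 117287797 to 117292868 and 117277331 to 117282321. The 3 promoter sequences below are shown because Mmp7 and Ang4 rose in some allogeneic cells, and Rnase1 was the member with the largest lower fold change in goblet-like cells. Each runs 5′ to 3′ on the gene's own strand from 250 bases before the start to 25 bases after it (RefSeq, GRCm38.p6). Capitals mark matches to 3 motifs searched on both strands: CTTTGA, the core bound by TCF/LEF factors of the Wnt pathway, TTCNNNGAA, the GAS element bound by STAT dimers, and a core of the interferon-stimulated response element. In Mmp7 the capitals are CTTTGA read on the other strand, in Ang4 a GAS match, and in Rnase1 first the response element core on the other strand and then a GAS match. No 2 of the capital stretches overlap.
Mmp7, chr9:7691840-7692114, plus strand: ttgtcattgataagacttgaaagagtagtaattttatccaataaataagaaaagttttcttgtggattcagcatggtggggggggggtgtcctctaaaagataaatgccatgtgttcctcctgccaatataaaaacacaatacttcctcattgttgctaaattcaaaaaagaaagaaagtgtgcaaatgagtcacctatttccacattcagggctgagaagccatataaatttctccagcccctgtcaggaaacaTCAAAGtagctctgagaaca
Ang4, chr14:51773566-51773840, minus strand: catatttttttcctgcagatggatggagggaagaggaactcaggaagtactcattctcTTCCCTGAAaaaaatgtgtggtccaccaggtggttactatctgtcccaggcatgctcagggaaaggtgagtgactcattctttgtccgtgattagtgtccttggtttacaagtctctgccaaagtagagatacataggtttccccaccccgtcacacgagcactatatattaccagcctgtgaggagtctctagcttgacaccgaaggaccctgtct
Rnase1, chr14:51146743-51147017, minus strand: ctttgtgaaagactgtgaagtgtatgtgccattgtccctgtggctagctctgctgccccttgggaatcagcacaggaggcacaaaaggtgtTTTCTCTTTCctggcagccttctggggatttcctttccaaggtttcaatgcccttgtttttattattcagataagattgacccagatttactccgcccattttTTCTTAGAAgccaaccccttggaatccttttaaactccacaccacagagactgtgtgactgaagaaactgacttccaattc

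The CTTTGA match of Mmp7 begins at base 6 of the transcript. The GAS match of Ang4 begins 192 bases before the start (position -192), and the matches of Rnase1 begin at -159 and -56. Over the full 300-base windows (250 before to 50 after the start), CTTTGA was present in 2 of the 8 members (Mmp7 and Pnliprp2), GAS in 2 (Ang4 and Rnase1) and the response element core in 1 (Rnase1). Among all 32851 listed mouse promoters, 16.0%, 8.30% and 3.44% held a match to CTTTGA, GAS and the response element core. A match describes the letters only. The Lyz1 and Lyz2 windows had the same base at 201 of 300 positions (67.0%), and at 141 of the last 150 (94.0%).

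The libraries held 3387 and 6341 barcodes in the allogeneic group and 3580 and 3257 in the syngeneic group, with total counts of unique molecular identifiers (UMIs) from 14961466 to 26677842. After filters on genes, UMIs and mitochondrial reads and removal of called doublets, 2052 and 4804 allogeneic cells and 2872 and 2457 syngeneic cells remained, and any pair of libraries shared 0 to 6 kept barcodes. Cells were clustered without the 8 members and without genes under a list of interferon and antigen-presentation symbol prefixes, with Ly6 and Reg3 also on it. Genes outside these prefixes, such as Ido1 and Cd74, stayed eligible. Clusters were named from marker lists. Although the cells are labelled as crypt epithelium, 231 and 197 allogeneic cells and 13 and 33 syngeneic cells carried T or NK cell markers and were set apart. Epithelial cells numbered 1808 and 4602 in allogeneic and 2859 and 2424 in syngeneic libraries. α-Defensins were counted as the 22 genes whose symbol is Defa followed by a number. Any defensin gene under another symbol was counted among non-defensin UMIs. The α-defensins so counted took 3.07% and 1.38% of the UMIs of allogeneic cells, against 6.54% and 7.68% in syngeneic cells. Values below are CPM (UMIs of a gene per 1000000 UMIs of the class in that library), listed as libraries 1 and 2 of each group. With 3′ counting, a level is not divided by transcript length.

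Defensin-rich cells formed 2 clusters that together held 179 and 138 allogeneic cells and 327 and 317 syngeneic cells. Their α-defensin share was 28.4% and 31.0% in allogeneic and 33.1% and 35.9% in syngeneic libraries, and their median depths were 6187 and 5896.5 UMIs against 8490 and 7481. In these cells Mmp7, Ang4 and Pnliprp2 had higher values in both allogeneic libraries than in both syngeneic ones, and Lyz1, Itln1, Reg4 and Rnase1 had lower values. Of all genes tested, 25.4% were likewise higher in both allogeneic libraries and 12.6% lower in both. Mptx2 overlapped between groups. None of the 8 passed edgeR's quasi-likelihood test with Benjamini-Hochberg adjustment over 8418 genes, where 0.974% of all genes passed. At an unadjusted p under 0.05 there were 761 genes, and DESeq2 also called 0 of the 8 (1.02% of all genes).

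Lyz1 was the most abundant member, at 25035 and 18813 CPM in allogeneic and 37114 and 43053 CPM in syngeneic defensin-rich cells. The groups did not overlap, with a log2 fold change of -1.001 ± 0.25 (SE; edgeR adjusted p = 0.126). The lectin gene Itln1 stood at 15788 and 14262 CPM in allogeneic and 23693 and 28274 CPM in syngeneic cells (log2 -0.92 ± 0.25, edgeR adjusted p = 0.167). Lyz1 and Itln1 were thus both lower by a similar factor, short of the threshold.

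Mmp7 ran the other way, at 6617 and 5569 CPM in allogeneic and 2656 and 3509 CPM in syngeneic cells (log2 0.85 ± 0.27, edgeR adjusted p = 0.281). Ang4 was at 8513 and 12721 CPM in allogeneic and 5515 and 4193 CPM in syngeneic cells (log2 1.04 ± 0.29, edgeR adjusted p = 0.175). In each of these genes the lower allogeneic value lay above the higher syngeneic one. Pnliprp2 had 592 and 679 CPM in allogeneic and 514 and 417 CPM in syngeneic cells, a smaller difference (log2 0.34 ± 0.27, edgeR adjusted p = 0.787).

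Among the less abundant lectin and ribonuclease genes, Reg4 was at 633 and 630 CPM in allogeneic and 983 and 767 CPM in syngeneic cells. Rnase1 was at 187 and 120 CPM in allogeneic and 236 and 229 CPM in syngeneic cells. For Mptx2, allogeneic library 2 was lowest at 3465 CPM, while allogeneic library 1 (6529 CPM) lay between the syngeneic libraries (6142 and 8589 CPM). Leaving out 1 library changed these counts of calls, for the members and for all genes. Without allogeneic library 1, edgeR called 4.43% of all genes and 6 members: Mmp7 and Ang4 higher, and Lyz1, Itln1, Mptx2 and Rnase1 lower. Without allogeneic library 2 it called 5.47% of all genes and 5 members, with Mmp7 and Ang4 higher and Lyz1, Itln1 and Reg4 lower. Without syngeneic library 1 or 2 it called 0 members and 0.619% or 0.712% of all genes. Without a filter on low counts, Lyz1 alone was called (log2 -1.02, edgeR adjusted p = 0.0331), where 1.58% of all genes passed.

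**Figure D1:**
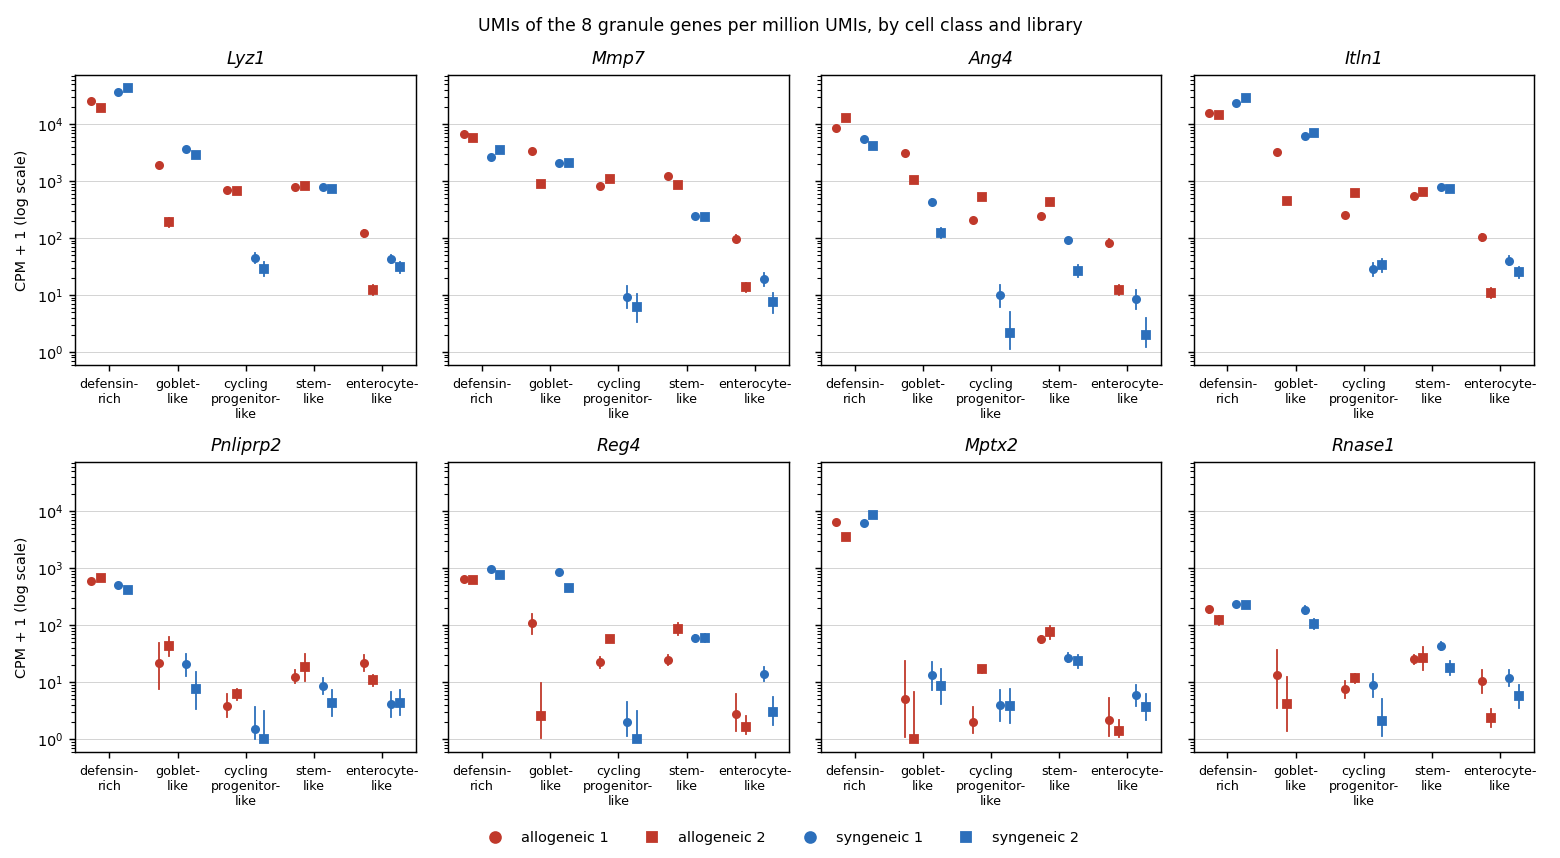
CPM + 1 (log axis) of the 8 granule genes in 5 cell classes; red points are allogeneic and blue points syngeneic libraries (circle, library 1; square, library 2), with bars for the exact 95% Poisson interval of the count. In defensin-rich cells Mmp7 and Ang4 sit higher in red, and Lyz1 and Itln1 lower in red; in stem-like cells Mmp7 sits at 1241 and 858 CPM in allogeneic and 244 and 230 CPM in syngeneic libraries.

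The makeup of the defensin-rich class differed between groups, so its 2 clusters were also compared one at a time. The cluster with fewer defensins, led by Reg4, Defa17 and Rnase1, held 122 and 101 allogeneic and 107 and 143 syngeneic cells, with a defensin share of 12.8% and 21.4% against 11.9% and 14.6%. The cluster rich in defensins, whose leading genes include Defa21, Defa22 and Mptx2, held 57 and 37 allogeneic and 220 and 174 syngeneic cells, with a defensin share of 44.0% and 49.5% against 38.5% and 43.9%. Gm14851, Gm15292 and Gm15293 were also among its leading genes and were not counted as defensins. Members lead these clusters although they were not used to form them.

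In the low-defensin cluster, Ang4 rose and Reg4 fell in allogeneic cells. Ang4 had 7408 and 12403 CPM in allogeneic cells and 1314 and 1563 CPM in syngeneic cells. The allogeneic values were several times higher in both libraries, with a log2 fold change of 2.96 ± 0.33 (edgeR adjusted p = 5.49e-05). Reg4 had 1044 and 818 CPM in allogeneic cells and 3008 and 2076 CPM in syngeneic cells (log2 -1.30 ± 0.28, edgeR adjusted p = 0.0301). These were 2 of the 8 members, where 1% of all genes tested passed. The 2 clusters were compared separately only after the first results were seen. Lyz1 overlapped between groups in this cluster, at 26121 and 19469 CPM in allogeneic and 23596 and 29182 CPM in syngeneic cells (log2 -0.08, edgeR adjusted p = 0.994). Itln1 stayed lower, at 14408 and 14352 CPM against 25087 and 32207 CPM, and missed the threshold (log2 -0.85, edgeR adjusted p = 0.168).

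In the high-defensin cluster 0 of the 8 members passed edgeR's test, where 0.798% of all genes did (610 genes at an unadjusted p under 0.05). The lower Lyz1 level was found here, at 23947 and 17548 CPM in allogeneic and 40576 and 48242 CPM in syngeneic cells (log2 -0.98, edgeR adjusted p = 0.230). Ang4 had 9622 and 13334 CPM in allogeneic and 6592 and 5177 CPM in syngeneic cells (log2 1.14, edgeR adjusted p = 0.137). Mmp7 had 3458 and 3201 CPM in allogeneic and 2050 and 2372 CPM in syngeneic cells. Mptx2, at 11410 and 8142 CPM against 7484 and 10995 CPM, overlapped between groups and its fold change turned positive (log2 0.19, edgeR adjusted p = 0.919). The difference in fold change between the 2 clusters was not tested.

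The α-defensins themselves gave 1 lower gene among the 17 tested of 22 in the whole defensin-rich class, with a median log2 fold change of -0.61 beside 0.01 over all genes. Of 18 relatives of the members, 17 were in the files and 7 were tested. Reg3b, an antimicrobial lectin of the regenerating family, fell (log2 -1.76, edgeR adjusted p = 0.00623). Mptx1, another mucosal pentraxin gene, had a large but uncertain fold change (log2 5.07 ± 1.14, edgeR adjusted p = 0.137). Of 25 tested genes from a list of Paneth cell regulators and niche genes, 0 passed. Of 13 tested genes of granule packaging and secretion, 1 passed: Zg16, a zymogen granule lectin best known from goblet cells, fell (log2 -2.92, edgeR adjusted p = 0.00425). The summed level of all 10 goblet markers in the class was 24966 and 36149 CPM in allogeneic and 23640 and 33453 CPM in syngeneic libraries, with no marker at 0. T or NK markers summed to at most 10.2 CPM in any library, with Trac at 0 in all 4.

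**Figure D2:**
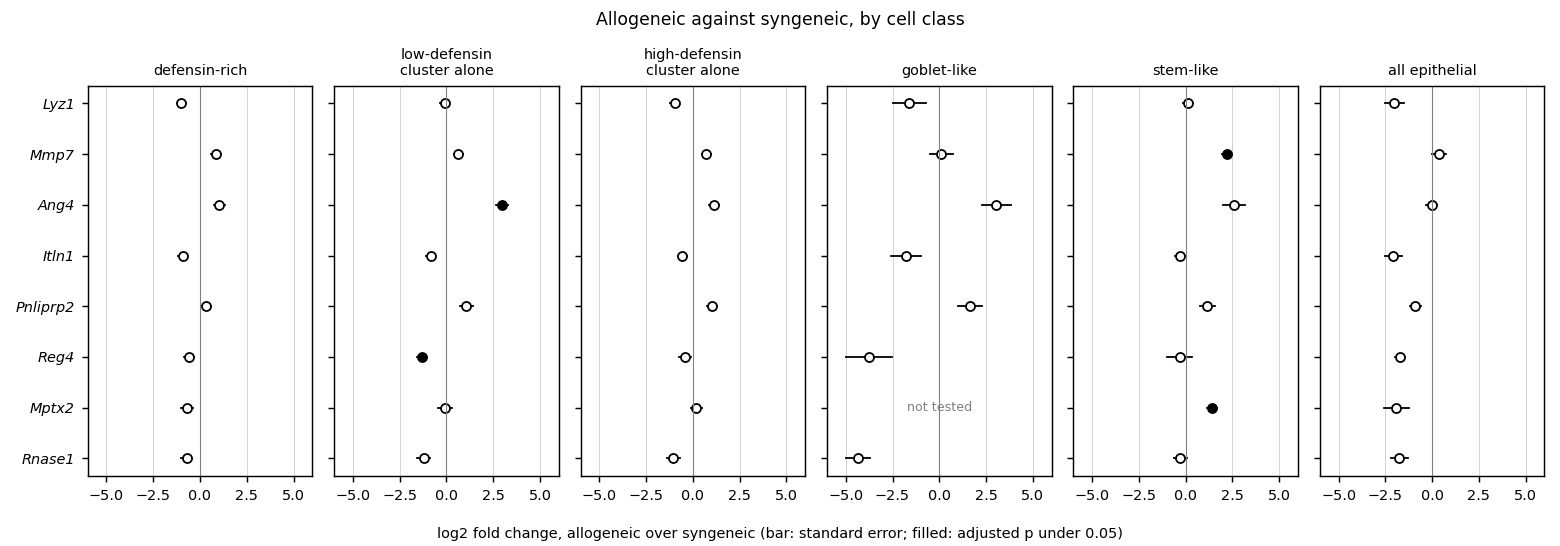
Log2 fold change of each member, allogeneic over syngeneic (x axis), in 6 sets of cells; bars are standard errors and filled points have an edgeR adjusted p under 0.05. Filled points are Ang4 and Reg4 in the low-defensin cluster (2.96 and -1.30) and Mmp7 and Mptx2 in stem-like cells (2.20 and 1.40).

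Goblet-like cells, which secrete mucus, numbered 53 and 100 in allogeneic and 231 and 224 in syngeneic libraries, at median depths of 4534 and 6048 UMIs against 3806 and 3731.5. The class was filled by different clusters in the 2 groups. One led by Fcgbp and Zg16 held 47 and 16 allogeneic and 210 and 210 syngeneic cells. Another led by Clca1, with Ido1 among its leading genes, held 6 and 84 allogeneic and 21 and 14 syngeneic cells. Ang4 and Pnliprp2 had higher values in both allogeneic libraries, Lyz1, Itln1, Reg4, Rnase1 and Mptx2 lower ones, and Mmp7 overlapped. Of all genes tested, 15.7% were higher in both allogeneic libraries and 30.3% lower in both. Mptx2 was too low to be tested, and edgeR called 0 of the other 7 members, where 0% of 6470 genes passed (889 at an unadjusted p under 0.05). DESeq2 called 81 genes (1.25%), Ang4 and Rnase1 among them.

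Ang4 was at 3140 and 1059 CPM in allogeneic and 430 and 122 CPM in syngeneic goblet-like cells (log2 3.04 ± 0.77, edgeR adjusted p = 0.273, DESeq2 adjusted p = 0.00131). The higher value was also present within the Fcgbp-led cluster, at 3483 and 5236 CPM in allogeneic and 506 and 133 CPM in syngeneic cells. After thinning every cell to 2000 UMIs, 63.8% and 44.6% of allogeneic and 19.1% and 10.4% of syngeneic goblet-like cells held an Ang4 UMI (62.3% and 63.0%, against 23.8% and 14.3%, unthinned). In thinned enterocyte-like cells, which should lack Ang4, the shares were 2.82% and 1.49% in allogeneic and 1.42% and 0.166% in syngeneic libraries, at median depths of 3727 and 3354.5 against 4019.5 and 3583 UMIs before thinning. Ang4 detection in goblet-like cells was thus above that of enterocyte-like cells in all 4 libraries. Defensin UMIs made up 1.08% and 0.383% in allogeneic and 1.71% and 1.76% in syngeneic goblet-like cells. In enterocyte-like cells they made up 0.0307% and 0.0138% against 0.0514% and 0.0213%. These classes thus held unlike amounts of defensin RNA, and the part of carried-over Paneth cell RNA was not tested.

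Rnase1 had 3 and 2 UMIs in allogeneic and 179 and 97 UMIs in syngeneic goblet-like cells, which is 12.2 and 3.11 CPM against 185 and 105 CPM (log2 -4.34 ± 0.62, edgeR adjusted p = 0.189, DESeq2 adjusted p = 0.000545). Reg4 was at 106 and 1.56 CPM in allogeneic and 872 and 452 CPM in syngeneic cells (log2 -3.74 ± 1.22, edgeR adjusted p = 0.302). Both genes were lower in each allogeneic library than in either syngeneic one. Lyz1 (1904 and 187 CPM, against 3672 and 2903 CPM) and Itln1 (3254 and 446 CPM, against 6169 and 6995 CPM) were lower in both allogeneic libraries and lowest in allogeneic library 2. That library also had a summed level of the 10 enterocyte markers of 26082 CPM, against 3730 CPM in allogeneic library 1 and 4140 and 4289 CPM in the syngeneic libraries, with no marker at 0. Its part in the result was not tested. Within the Fcgbp-led cluster Itln1 was at 3655 and 2821 CPM in allogeneic and 7278 and 7829 CPM in syngeneic cells, which again did not overlap.

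Mmp7 in goblet-like cells, at 3327 and 880 CPM in allogeneic and 2069 and 2080 CPM in syngeneic cells, spanned the syngeneic values (log2 0.12). Without allogeneic library 1, edgeR called 5 members (Pnliprp2 higher; Lyz1, Mmp7, Itln1 and Rnase1 lower), but also 33.7% of all genes. Without allogeneic library 2 it called 4 (Mmp7 higher; Lyz1, Itln1 and Rnase1 lower) and 1.99% of all genes. It called 1 (Rnase1) without syngeneic library 1 and 2 (Rnase1 and Reg4) without syngeneic library 2, where 0.222% and 0.266% of all genes passed. The sign of Mmp7 thus rested on which allogeneic library was kept (log2 -0.89 without library 1 and 0.69 without library 2). Rnase1 was lower and called in each of the 4.

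An interaction fit asked whether the allogeneic fold change differed between defensin-rich and goblet-like cells. It called 0 of the 8 members with edgeR, where 0% of 7666 genes passed (694 at an unadjusted p under 0.05; 5 genes and 0 members by DESeq2). The largest differences, defensin-rich minus goblet-like, were 3.49 ± 0.62 for Rnase1 (edgeR adjusted p = 0.273), 3.48 for Reg4 (adjusted p = 0.410) and -2.21 for Ang4 (adjusted p = 0.473). Without allogeneic library 1 the fit called 6 members (Lyz1, Mmp7, Itln1, Pnliprp2, Reg4 and Rnase1) and 18.8% of all genes. Without allogeneic library 2 it called 3 (Ang4, Reg4 and Rnase1) and 0.308% of all genes. Without syngeneic library 1 or 2 it called 0 members and 0.0119% or 0.0356% of all genes.

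Cycling progenitor-like cells numbered 369 and 1639 in allogeneic and 365 and 297 in syngeneic libraries. Lyz1, Mmp7 and Itln1 rose in allogeneic cells of this class, 3 of the 6 members tested, where 10.9% of all genes passed edgeR's test. Mmp7 was at 806 and 1067 CPM in allogeneic and 8.29 and 5.03 CPM in syngeneic cells (log2 7.15 ± 0.43, edgeR adjusted p = 5.59e-11). Lyz1 was at 689 and 672 CPM in allogeneic and 43.9 and 27.9 CPM in syngeneic cells (log2 4.25 ± 0.33, edgeR adjusted p = 3.95e-09). Itln1 was at 251 and 611 CPM in allogeneic and 27.3 and 32.4 CPM in syngeneic cells (log2 3.92 ± 0.51, edgeR adjusted p = 0.00093). For all 3 the lower allogeneic value was several times the higher syngeneic one.

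Ang4 (206 and 522 CPM, against 8.78 and 1.12 CPM) and Reg4 (21.2 and 56.3 CPM in allogeneic cells) also lay higher in both allogeneic libraries, as did 23.9% of all genes (23.7% lay lower in both), and edgeR gave adjusted p = 0.0960 for Ang4 and 0.0833 for Reg4. Reg4 had 2 UMIs in syngeneic library 1 and 0 in syngeneic library 2, where 0 UMIs allow up to 1.68 CPM (3 counts). Rnase1 overlapped at 6.45 and 10.6 CPM in allogeneic and 7.81 and 1.12 CPM in syngeneic cells. Pnliprp2 (11 and 57 UMIs, against 1 and 0) and Mptx2 (4 and 175 UMIs, against 6 and 5) were too low to be tested. EdgeR called all 8 members without allogeneic library 1 and 5 without allogeneic library 2, in fits that called 34.6% and 26% of all genes. It called 7 without syngeneic library 1 and 5 without syngeneic library 2, where 4.62% and 5.29% of all genes passed. Lyz1, Mmp7, Ang4, Itln1 and Reg4 were higher and called in each of these 4 fits.

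These calls depended on which cycling cells entered the class. A cluster led by Cxcl10 gave 160 and 959 allogeneic and 8 and 5 syngeneic cells, and a cluster led by Ido1 and Retnlb gave 98 and 661 allogeneic and 2 and 2 syngeneic cells. A cluster led by Dmbt1 gave 111 and 19 allogeneic and 355 and 290 syngeneic cells. The 10 goblet markers summed to 4558 and 10008 CPM in allogeneic and 319 and 475 CPM in syngeneic cells of the class, and 7 of the 10 were higher by edgeR's test. Tpsg1 was at 0 in syngeneic library 1 and no other marker was at 0 in any library. Of 22 tested Paneth regulator and niche genes, 13 were higher and 2 lower, including Spdef (log2 5.84) and Atoh1 (log2 4.55), which drive secretory fate. An unnamed cluster led by Creb3l1, Spdef and Atoh1 held 141 and 11 allogeneic and 262 and 223 syngeneic cells and had stayed outside the class. It scored highest for the cycling progenitor markers (mean z 1.33, 10 detected). Goblet markers outnumbered them among its leading genes, so the naming rule left it unnamed.

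With that secretory cluster added, 1 member was called, where 4.95% of all genes passed. Mmp7 was at 1166 and 1068 CPM in allogeneic and 417 and 406 CPM in syngeneic cells (log2 1.52 ± 0.29, edgeR adjusted p = 0.0110). Lyz1 was at 908 and 686 CPM in allogeneic and 518 and 500 CPM in syngeneic cells (log2 0.71), and Itln1 at 416 and 616 CPM against 793 and 810 CPM (log2 -0.52). The fold change of Itln1 therefore changed sign, as did those of Reg4 (-0.79) and Rnase1 (-1.66). Without the cluster led by Ido1 and Retnlb instead, Lyz1 (log2 1.98), Mmp7 (5.82) and Itln1 (1.89) were called again, where 7.98% of all genes passed. When called doublets were kept and the cells clustered again, the class itself was redrawn. A cluster with Egr1 and Atf3 among its leading genes joined it, and one led by Retnlb and Ido1 stayed outside. The class then held 554 and 1189 allogeneic and 437 and 343 syngeneic cells. In it Mmp7 was called higher (log2 1.41, edgeR adjusted p = 0.0242), but Itln1 (-1.46, edgeR adjusted p = 0.0170) and Reg4 (-2.06, edgeR adjusted p = 0.000265) were called lower, where 3.69% of all genes passed. The parts of the doublets and of the redrawn class cannot be told apart. Only Mmp7 was called higher in all 3 of these sets of cells and in the class as first drawn.

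Another choice of cells used the clusters only to leave out the defensin-rich class and non-epithelial cells. It took the remaining cells with a UMI of Mki67 or Top2a, both markers of proliferation (830 and 1396 allogeneic, 1022 and 773 syngeneic cells). There edgeR called 0 of the 8 members, where 0.847% of all genes passed (1377 genes at an unadjusted p under 0.05). Mmp7 was at 1059 and 807 CPM in allogeneic and 344 and 375 CPM in syngeneic cells (log2 1.47, edgeR adjusted p = 0.0720), and Ang4 at 278 and 391 CPM against 100 and 32.5 CPM (log2 2.47, edgeR adjusted p = 0.110). Mmp7 and Ang4 were the 2 members whose values were higher in both allogeneic libraries of this set, and Itln1, Reg4 and Rnase1 the 3 that were lower in both. Of all genes tested, 14.5% were higher and 25.9% lower in both.

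Those proliferating cells had median depths of 9152 and 6915.5 UMIs in allogeneic and 6194 and 6064 UMIs in syngeneic libraries. They were then split by a UMI of Atoh1 or Spdef. Depths were 11496 and 8563 against 7890 and 7566 UMIs with such a UMI, and 8504 and 6340.5 against 5764 and 5694 UMIs without. The part of depth in these choices was not tested. Among the cells with such a UMI (206 and 468 allogeneic, 245 and 191 syngeneic), Ang4 rose and Itln1 fell, 2 of 8 members where 1.69% of all genes passed. Ang4 was at 565 and 675 CPM in allogeneic and 171 and 84.7 CPM in syngeneic cells (log2 2.39 ± 0.38, edgeR adjusted p = 0.00957). Itln1 was at 766 and 699 CPM in allogeneic and 1928 and 2105 CPM in syngeneic cells (log2 -1.37 ± 0.29, edgeR adjusted p = 0.0396). Neither gene overlapped between groups, nor did Lyz1, Mmp7, Reg4 and Rnase1, of which Mmp7 alone was higher in allogeneic cells. Of all genes tested, 15.7% were higher and 24.7% lower in both allogeneic libraries. Reg4, at 59.4 and 77.6 CPM against 196 and 161 CPM, missed the threshold (log2 -1.26, edgeR adjusted p = 0.0511).

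Among proliferating cells without a UMI of Atoh1 or Spdef (624 and 928 allogeneic, 777 and 582 syngeneic), Mmp7 rose, at 713 and 464 CPM in allogeneic and 129 and 161 CPM in syngeneic cells (log2 2.09 ± 0.31, edgeR adjusted p = 0.0351). It was the single member called, where 0.643% of all genes passed. Ang4 and Pnliprp2 were also higher in both allogeneic libraries, and Itln1 and Rnase1 lower in both, beside 14.1% and 24.5% of all genes. Mmp7 and Ang4 were thus higher, and Itln1 and Rnase1 lower, in both allogeneic libraries of either set, and the difference in fold change between the sets was not tested. These sets of cells were all chosen after the first results were seen.

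**Figure D3:**
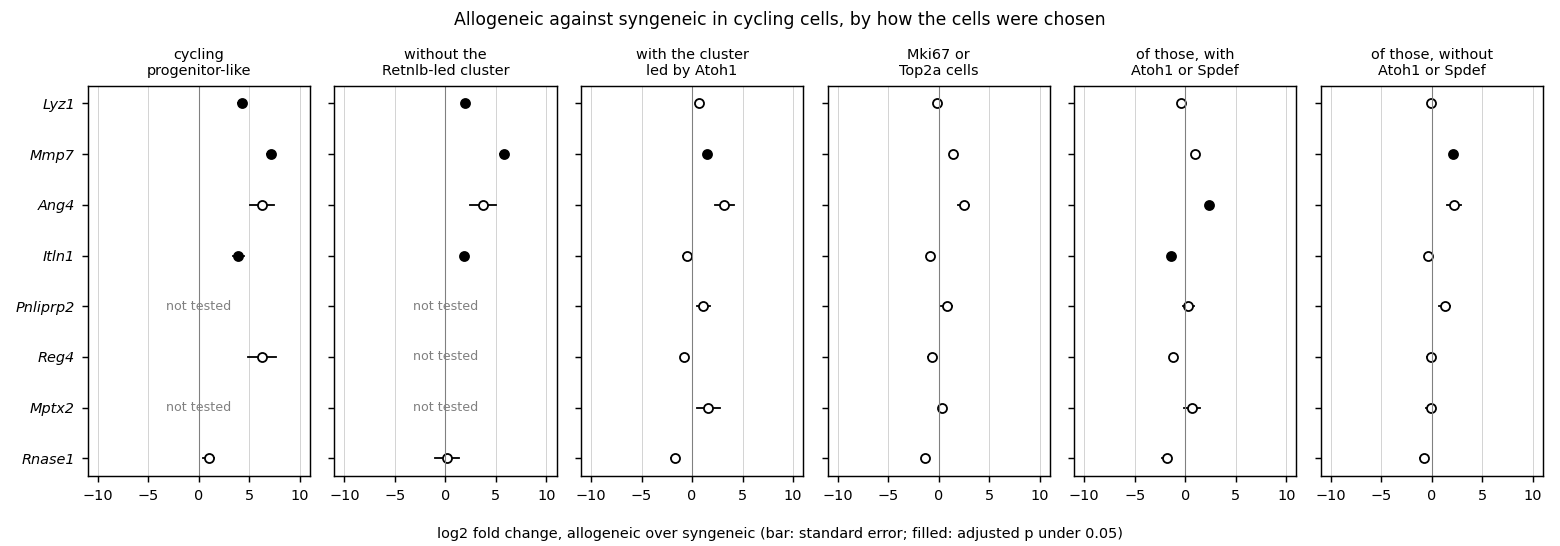
Log2 fold change of each member, allogeneic over syngeneic (x axis), in cycling cells chosen in 6 ways; bars are standard errors and filled points have an edgeR adjusted p under 0.05. Mmp7 lies above 0 in every panel (7.15 in the class as first drawn, 1.47 in Mki67 or Top2a cells), whereas Lyz1 and Itln1 lie at 4.25 and 3.92 in the first panel and at -0.19 and -0.86 in Mki67 or Top2a cells.

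Stem-like cells, which lie next to Paneth cells in the crypt, were added to the comparison after the first results (571 and 159 allogeneic, 846 and 547 syngeneic cells). The class was filled differently in the 2 groups: a cluster led by the early-response genes Egr1 and Atf3 gave 223 and 65 allogeneic and 90 and 57 syngeneic cells. A cluster led by Olfm4 without cycling genes gave 268 and 76 allogeneic and 487 and 310 syngeneic cells, and one led by Olfm4 with Top2a gave 80 and 18 against 269 and 180. Mmp7 and Mptx2 rose in the class as a whole, 2 of 8 members where 2.1% of all genes passed. Mmp7 was at 1241 and 858 CPM in allogeneic and 244 and 230 CPM in syngeneic cells (log2 2.20 ± 0.28, edgeR adjusted p = 0.000839). Mptx2 was at 55.3 and 74.0 CPM in allogeneic and 25.9 and 22.2 CPM in syngeneic cells (log2 1.40 ± 0.25, edgeR adjusted p = 0.00846). By cluster, Mptx2 was higher in both allogeneic libraries in the Egr1-led cluster alone, at 114 and 53.3 CPM in allogeneic and 30.6 and 25.6 CPM in syngeneic cells. In the Olfm4-led cluster without cycling genes it was lower in both, at 2 and 0 UMIs in allogeneic and 17 and 10 UMIs in syngeneic cells. It overlapped in the one with Top2a, at 35.3 and 485 CPM against 42.6 and 36.4 CPM. The share of all genes in either order was not counted in these clusters. In the sets of cells where it was counted, each order held 12.6% to 30.3% of all genes. Moving every cell with at least 5% defensin UMIs to the defensin-rich class took the Mptx2 difference away (log2 0.12, edgeR adjusted p = 0.964) and left that of Mmp7 (log2 2.22, edgeR adjusted p = 0.000791), in a fit that called 2.2% of all genes. Ang4, at 246 and 425 CPM against 90.0 and 25.5 CPM, missed the threshold in the first comparison (log2 2.59, edgeR adjusted p = 0.0738) and passed it in the second (log2 2.76, edgeR adjusted p = 0.00766).

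Lyz1 in stem-like cells was at 773 and 805 CPM in allogeneic and 799 and 737 CPM in syngeneic cells (log2 0.11), and its groups overlapped. After thinning, a Mmp7 UMI was present in 67.8% and 46.9% of allogeneic and 14.2% and 15.03% of syngeneic stem-like cells (83.5% and 56.0%, against 20.3% and 19.2%, unthinned). In thinned enterocyte-like cells the Mmp7 share was 2.82% and 1.37% against 1.26% and 0.995%. In T or NK-like cells it was 3.49% and 2.82% of 86 and 71 allogeneic cells, and 0 of 5 and 0 of 9 syngeneic cells deep enough to be thinned (median depths 1590 and 1595, against 1406 and 1323 UMIs), which allow up to 60.0% and 33.3%. By cluster, Mmp7 was at 609 and 371 CPM in allogeneic and 53.6 and 38.0 CPM in syngeneic cells of the cluster led by Olfm4 without cycling genes. It was at 845 and 426 CPM against 47.9 and 103 CPM in the Olfm4-led cluster with Top2a. The Egr1-led cluster overlapped at 1995 and 1237 CPM in allogeneic and 1296 and 1325 CPM in syngeneic cells.

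Leaving out 1 library in stem-like cells gave 5 called members without allogeneic library 1 and 6 without allogeneic library 2, where 9.96% and 18.1% of all genes passed. It gave 1 (Ang4) without syngeneic library 1 and 0 without syngeneic library 2, where 0.621% and 0.871% passed. The adjusted p of Mmp7 was 0.0986 without syngeneic library 1 and 0.0885 without syngeneic library 2. The relatives Reg1, Reg3a, Reg3b and Reg3g fell, 4 of 7 tested, by log2 -2.37, -2.30, -1.98 and -1.96. Of 24 tested Paneth regulators and niche genes, 4 rose: Guca2b (log2 1.04), Kit (1.57), Ern2 (1.23) and Wnt3 (1.47), the last a Wnt ligand that Paneth cells supply to stem cells. The 8 stem markers summed to 3898 and 2145 CPM in allogeneic and 5316 and 4862 CPM in syngeneic cells, with Gkn3 at 0 in both allogeneic libraries.

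Over all epithelial cells summed, 0 of the 8 members passed edgeR's test, where 0.158% of all genes did (1185 at an unadjusted p under 0.05). In such a sum, fewer Paneth cells and less RNA per Paneth cell cannot be told apart. Lyz1 was at 3302 and 1068 CPM in allogeneic and 7651 and 9472 CPM in syngeneic libraries (log2 -2.03), with similar fold changes for Itln1 (-2.07), Mptx2 (-1.91), Rnase1 (-1.75) and Reg4 (-1.71). These 5 were the members DESeq2 called, with 2.77% of all genes. Mmp7 was at 1647 and 765 CPM in allogeneic and 810 and 1040 CPM in syngeneic libraries (log2 0.36), and Ang4 at 1169 and 784 CPM against 1129 and 894 CPM (log2 -0.03). Mmp7 and Ang4 were the 2 members whose groups overlapped here, and the other 6 were lower in both allogeneic libraries, beside 17.8% of all genes (18.2% were higher in both). Meanwhile the summed defensins of epithelial cells were 3.20% and 1.40% of UMIs in allogeneic libraries, against 6.55% and 7.72% in syngeneic ones. EdgeR called 6 members without allogeneic library 1 (Lyz1, Itln1, Pnliprp2, Reg4, Mptx2 and Rnase1, all lower), but also 44.2% of all genes. It called 6 without allogeneic library 2 (Mmp7 higher; Lyz1, Itln1, Pnliprp2, Reg4 and Rnase1 lower), with 22.2% of all genes. It called 0 without syngeneic library 1 and 1 (Rnase1) without syngeneic library 2, with 0.78% and 0.884% of all genes.

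To see which members went with the defensins, epithelial cells were next sorted by their own defensin share rather than by cluster. Member UMIs were counted per 10000 non-defensin UMIs. Lyz1, Mmp7, Ang4 and Itln1 increased at each of the steps between the 5 bins in all 4 libraries. Mptx2 was the steepest at the top: it stood at 206 and 90.8 in allogeneic and 140 and 199 in syngeneic cells with over 20% defensins, and at 0.86 and 2.48 against 3.71 and 0.96 in cells with 2 to 5%. Mmp7 was the flattest of the 4 that increased throughout, at 98.4 and 106 in allogeneic and 42.2 and 57.4 in syngeneic cells with over 20% defensins. It was already at 8.39 and 4.04 against 1.92 and 2.40 in cells with under 0.5%.

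Rnase1 and Reg4 did not peak with the defensins in the same way. Rnase1 was at 2.11 and 1.47 in allogeneic and 3.76 and 4.10 in syngeneic cells with 5 to 20% defensins, and at 2.07 and 1.46 against 2.63 and 2.56 above 20%. Reg4 in allogeneic cells was lower at 5 to 20% (7.51 and 3.57) than above 20% (9.96 and 14.9), whereas in syngeneic cells it was higher at 5 to 20% (21.4 and 16.3) than above 20% (11.6 and 9.26). Ang4 at 5 to 20% was 55.4 and 64.4 in allogeneic against 18.4 and 15.7 in syngeneic cells, and above 20% it was 223 and 294 against 123 and 97.6. Its allogeneic values were higher in both bins, which were drawn by defensin share and not by cluster.

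**Figure D4:**
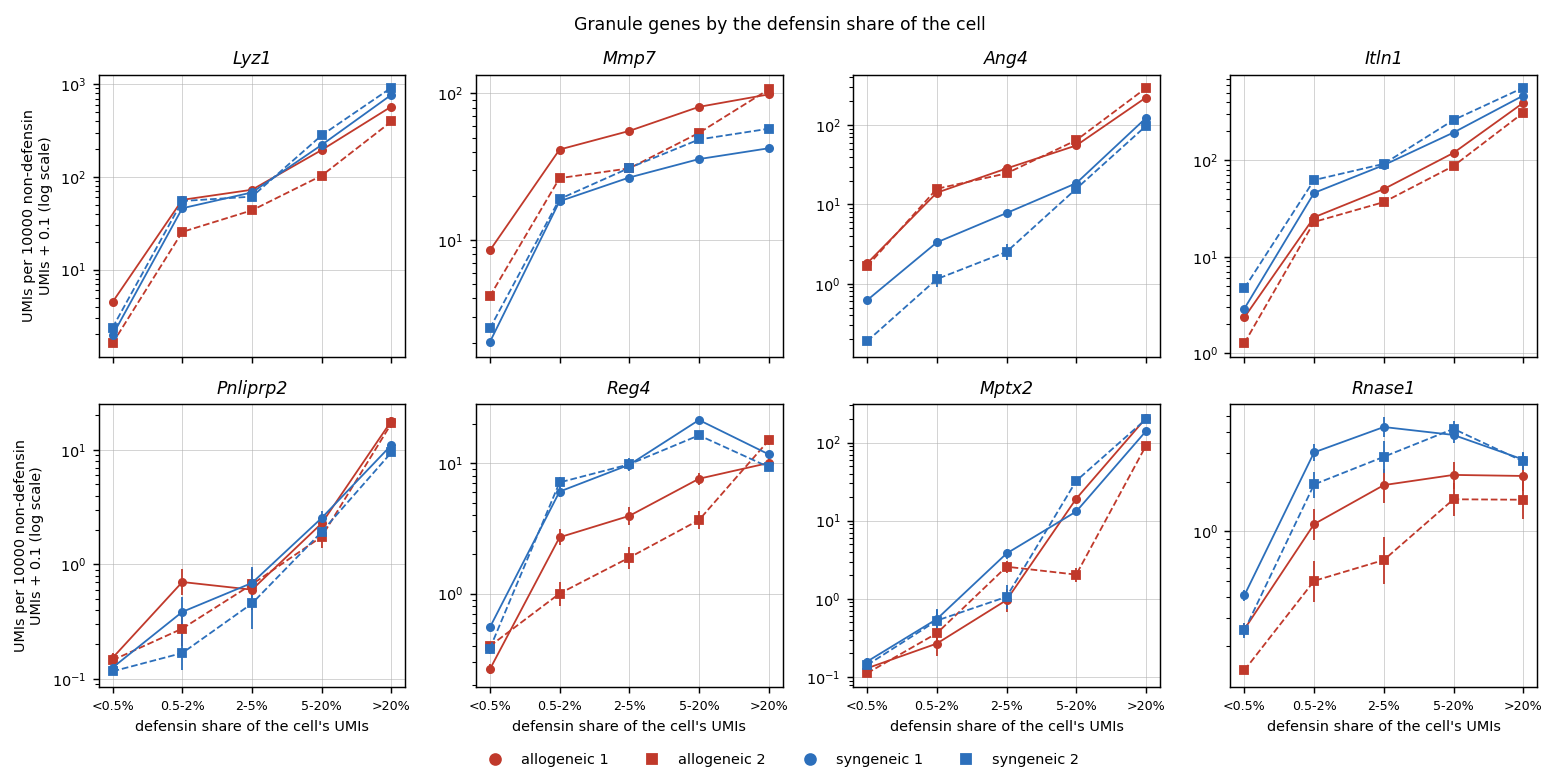
UMIs of each member per 10000 non-defensin UMIs (plus 0.1, log axis) in cells binned by their defensin share (x axis); red lines are allogeneic and blue lines syngeneic libraries (solid, library 1; dashed, library 2), with exact 95% Poisson intervals. Ang4 is higher in red in all 5 bins and Mmp7 in 4 of the 5, Mptx2 climbs late, and Rnase1 is flat between the last 2 bins in the allogeneic libraries (2.11 and 1.47, then 2.07 and 1.46).

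Within defensin-rich cells, Spearman's rank correlation of a member's UMIs per 10000 non-defensin UMIs with the cell's defensin share separated the members, as a description over cells that share a library. For Ang4 it was 0.761 and 0.815 in allogeneic and 0.765 and 0.802 in syngeneic cells. Lyz1, Itln1, Pnliprp2 and Mptx2 had values between 0.435 and 0.791 in all 4 libraries. Rnase1 was negative throughout (-0.170 and -0.174, against -0.257 and -0.449), Reg4 was negative in 3 of 4 libraries, and Mmp7 ranged from -0.024 to 0.477. The few UMIs per cell of Rnase1 and Reg4 limit their values.

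Outside the defensin-rich cells, each member was set per defensin UMI of the same class and divided by the same ratio in defensin-rich cells of the same library. A value near 1 means that the member and the defensins stood in the proportion of Paneth cells. In goblet-like cells Mmp7 (12.1 to 15.1 over the 4 libraries), Itln1 (2.53 to 5.42) and Rnase1 (1.72 to 15.2) were above 1 in all 4 libraries. In cycling progenitor-like cells Lyz1 (1.14 to 8.84), Mmp7 (3.00 to 39.1), Itln1 (1.11 to 5.09) and Rnase1 (6.77 to 31.8) were. In stem-like cells 7 of the 8 members were above 1 in all 4 libraries, led by Rnase1 (10.5 to 18.2) and Mmp7 (9.39 to 15.4), and in enterocyte-like cells 5 were (Mmp7, Itln1, Pnliprp2, Reg4 and Rnase1). Mptx2 was under 1 in every library of goblet-like and cycling progenitor-like cells, at 0 to 0.0392 and 0.0507 to 0.826. In stem-like cells it was at 0.695 and 1.48 in allogeneic libraries, against 0.431 and 0.458 in syngeneic ones. Relative to the defensins, Mmp7 was more abundant in these 4 classes than in defensin-rich cells, and Mptx2 scarcer in goblet-like and cycling progenitor-like cells. The reference class was named by its defensins, which favours ratios above 1 elsewhere. The ratios are therefore a description, and none was tested.

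Ang4 gave a ratio in goblet-like cells of 9.71 and 6.73 in allogeneic libraries, against 1.51 and 0.592 in syngeneic libraries. Mmp7 in cycling progenitor-like cells was at 39.1 and 14.7 against 3.00 and 3.64. In T or NK-like cells, which do not make these proteins, the Mmp7 ratio was 1.94 and 30.9 against 1.23 and 4.65. It rested there on 54 and 30 UMIs of Mmp7 in allogeneic cells and on 2 and 1 UMIs in syngeneic cells. The Lyz1 ratio in those cells was between 0.598 and 1.22.

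**Figure D5:**
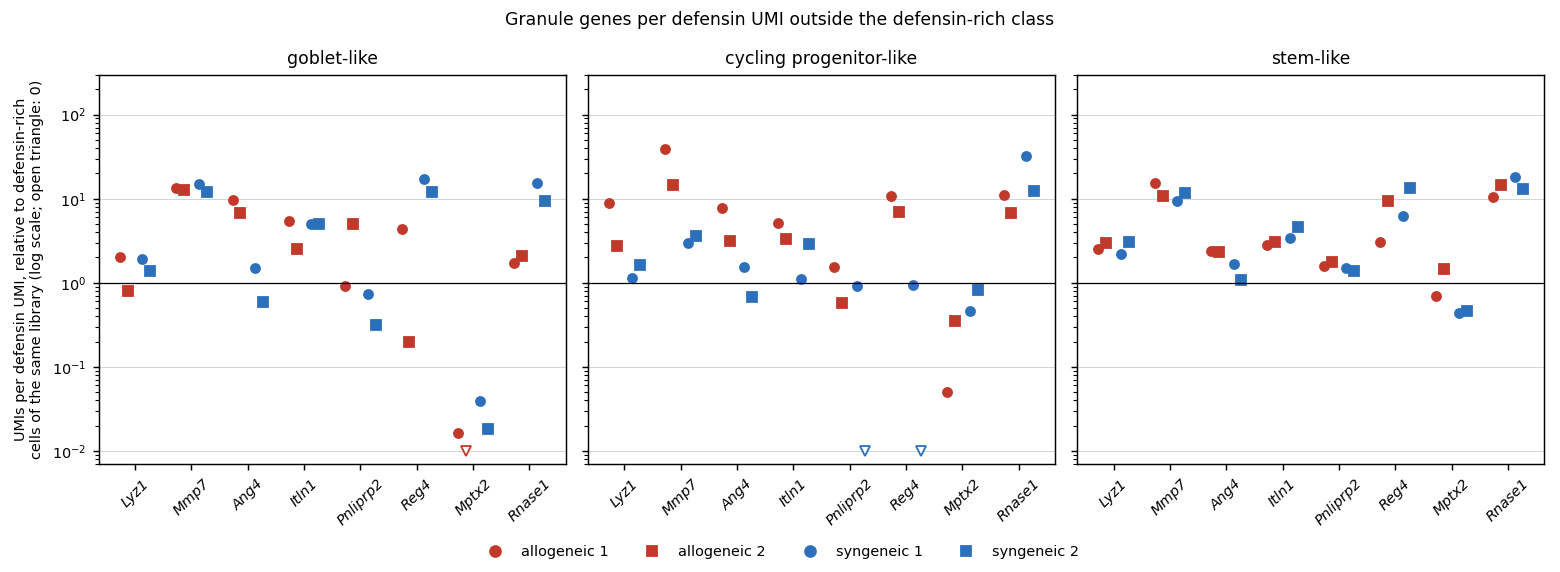
UMIs of each member per defensin UMI in goblet-like, cycling progenitor-like and stem-like cells, relative to defensin-rich cells of the same library (log axis; line at 1; open triangle for a count of 0). Red is allogeneic and blue syngeneic; Mmp7 lies above 1 in all 12 points, and Mptx2 below 1 in goblet-like cells, between 0 and 0.0392.

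Members also differed in the genes whose levels ran most like theirs over 28 sums (7 epithelial classes in 4 libraries, 10657 genes, Pearson's r of log2 CPM). These values describe differences between classes and share libraries. Lyz1 and Itln1 were each other's closest genes (r = 0.974). Mptx2 was closest to Defa21 (0.956) and Pnliprp2 to Defa36 (0.867), both α-defensins. Reg4 and Rnase1 were each other's closest (0.913). Mmp7 was closest to the chemokine gene Ccl9 (0.944) and then to the goblet marker Spink4 (0.940). Ang4 was closest to Retnlb (0.911), a goblet cell resistin-like protein, and then to Mmp7 (0.907). Against the summed defensins, r ran from 0.850 for Pnliprp2 and 0.857 for Mmp7 up to 0.954 for Lyz1 and 0.961 for Itln1.

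For 3 members, part of the 3′ end was shared with relatives, and how reads from such stretches were counted was not tested. Of the 50-base windows in the last 500 bases of the transcript, 80 of 451 for Lyz1 also occur in Lyz2, 31 of 451 for Ang4 in Ang2 or Ang5, and 11 of 451 for Mptx2 in Mptx1. For Mmp7, Itln1, Pnliprp2, Reg4 and Rnase1 no such window was shared.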

How the data were processed

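The authors deposited raw UMI counts per gene and barcode for 4 libraries of the 10x Genomics Chromium 3′ kit. Per the submitters' processing notes, Cell Ranger 2.1.1 and mm10 were used, and per the file headers the matrices were written by software version 3.1.0. How the 3′ reads of overlapping genes were assigned is not given in the sources used here.

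Barcodes with at least 500 genes, at least 1000 UMIs and at most 20% mitochondrial UMIs were kept. Between 11.2% and 27.2% of barcodes per library exceeded the last limit. Scrublet, as provided in scanpy 1.11.5, called 9 and 77 allogeneic and 3 and 11 syngeneic doublets, which were removed. Undetected doublets may remain. Leiden clustering (resolution 1) used 2000 variable genes and 30 components. Clusters were named from marker lists when at least 3 markers were detected and the mean z score was at least 0.5. A cluster stayed unnamed if another list had more markers among its 10 leading genes. It also stayed unnamed if its depth was low and none of its own markers led it. The lists of members, relatives and markers were chosen with earlier results of these data known.

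UMIs were summed per class and library. Groups were compared with edgeR 4.0.16 (TMM, filterByExpr, robust quasi-likelihood test, R 4.3.3), with Benjamini-Hochberg adjustment over all genes tested and a threshold of 0.05; DESeq2 1.42.0 was an alternative. Standard errors (SE, ±) are approximate: the size of the log2 fold change divided by the square root of the test's F. Nothing in the labels gives a batch. With 2 against 2 libraries an exact permutation test of a single value cannot go below p = 0.333, so none is given. Named genes were the 8 members, the summed α-defensins, relatives from a list, and genes of the regulator and granule lists that passed the test in a class. For each member, the closest genes by Pearson's r over class sums were named as well. Detection was compared after thinning cells to 2000 UMIs; intervals cover counting error only. Alternatives were another scaling, no filter on low counts, a mitochondrial limit of 10%, doublets kept, a cut at 5% defensin UMIs per cell, library sizes without defensins and members, and each library left out in turn. The low- and high-defensin clusters alone, the other sets of cycling cells and the stem-like comparison were added after seeing the data. The statistics were tested on simulated data.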

Additional observations from a re-analysis of the deposited data

Results flagged for a closer look

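Barcodes left out for more than 20% mitochondrial UMIs also held the lipase relative Pnliprp2, in data that no comparison used. It was at 31.8 and 18.5 CPM in 921 and 709 allogeneic barcodes, against 10.8 and 3.41 CPM in 524 and 485 syngeneic barcodes. Both allogeneic values lay above both syngeneic ones. The Pnliprp2 values rested on 68 and 17 UMIs, against 16 and 4 UMIs. Only members higher in both allogeneic libraries were flagged in these barcodes. Lyz1, Itln1, Reg4 and Rnase1 were lower there in both allogeneic libraries, and Mmp7, Ang4 and Mptx2 overlapped. The share of all genes in either order was not counted.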

How the results depend on the processing

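Of 531 recomputed fold changes of single members, 400 kept their direction and side of the threshold, 91 passed it only in the alternative, 9 no longer passed and 31 changed sign. Of 90 recomputed counts, 36 moved by over 1.5 times or from or to 0. Such a count gives how many members, not which ones or in which direction, so it can hold while the members change. In defensin-rich cells 1 member was called without a filter and 2 in the low-defensin cluster; in goblet-like cells 2 by DESeq2 and 2 without a filter. In cycling progenitor-like cells the count was 5 by DESeq2, 6 without a filter, 5 with the defensin cut, 1 with the secretory cluster, 0 in Mki67 or Top2a cells and 1 in those without Atoh1 or Spdef. In all epithelial cells it was 5 by DESeq2 and 5 without a filter, in stem-like cells 1 with doublets kept, and in the interaction 2 without a filter. Members above the defensin ratio in goblet-like cells numbered 5 with doublets kept and 5 with the defensin cut. Leaving out 1 library gave 0 to 6 members called in defensin-rich, 1 to 5 in goblet-like, 5 to 8 in cycling progenitor-like, 0 to 6 in epithelial and 0 to 6 in stem-like cells, 0 to 6 in the interaction, and 3 to 5 above the defensin ratio in goblet-like cells. A lone library was then assumed to vary like the other group. It was not run for single clusters or the other sets of cycling cells.

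Over all genes, calls ranged from 52 to 222 in defensin-rich, 0 to 358 in goblet-like, 69 to 1329 in cycling progenitor-like, 0 to 520 in epithelial and 105 to 437 in stem-like cells under the alternatives with all 4 libraries, single clusters and other sets of cells included, and 0 to 79 in the interaction. With 1 library left out they ranged from 50 to 520, 15 to 2571, 484 to 3274, 96 to 5498 and 64 to 1956 in the same 5 sets of cells, and from 1 to 1537 in the interaction.

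Signs changed for Mptx2 in the high-defensin cluster (log2 0.19). In cycling progenitor-like cells they changed for Lyz1, Itln1, Reg4 and Rnase1 with doublets kept (-0.76, -1.46, -2.06 and -0.998), in Mki67 or Top2a cells (-0.19, -0.86, -0.69 and -1.31), in those with Atoh1 or Spdef (-0.43, -1.37, -1.26 and -1.83) and in those without (-0.082, -0.38, -0.10 and -0.82). With the secretory cluster they changed for Itln1, Reg4 and Rnase1 (-0.52, -0.79 and -1.66). In stem-like cells they changed for Itln1 with doublets kept (0.11), Reg4 by DESeq2 (0.024) and Rnase1 with a 10% mitochondrial limit (0.15). Keeping doublets also redrew the classes, because the cells were clustered again. With 1 library left out, fold changes spanned 0: Mmp7 from -0.89 to 0.69 in goblet-like and from -0.050 to 0.66 in epithelial cells, Ang4 from -0.16 to 0.091 in epithelial cells, Lyz1 from -0.012 to 0.23, Reg4 from -1.34 to 0.71 and Rnase1 from -0.73 to 0.58 in stem-like cells, and Lyz1 from -0.049 to 2.61 in the interaction. In these the cause was not tested. No paired analysis was possible because replicate numbers follow the order of samples and pair nothing. Depth limits Rnase1, Reg4, Pnliprp2 and Mptx2 outside defensin-rich cells.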

Other observations

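A cluster led by Car1 and S100g, with 142 cells in allogeneic library 2, 1 in allogeneic library 1 and 0 in both syngeneic libraries, stayed unnamed. In allogeneic library 2 its cells held 195 UMIs of Ang4 (206 CPM) and 153 UMIs of Reg4 (162 CPM), but 36 of Lyz1, 33 of Mmp7, 1 of Itln1 and 47 of all α-defensins together. Ang4 and Reg4 were thus present there with few UMIs of the other granule genes, in 1 library.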
